A study of Mus musculus with 14 samples.

Results

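The two-cell-like state marker genes examined here were Zscan4c, Zscan4d, Zscan4f, Tcstv1, Tcstv3 and Zfp352, 6 of the 41204 gene identifiers in the table of poly(A)+ RNA-Seq values, chosen by gene symbol. The values were FPKM, fragment counts scaled to transcript length and to the size of the library. RNA-Seq was done in mouse embryonic stem cells (ESCs), cells grown from the inner part of the early embryo, from a cross labelled C57BL/6(F) x 129/sv(M). Wild-type ESCs and Trincr1-/- ESCs, which lack the last exons of the long noncoding RNA Trincr1 (Gm2694), were compared in 2 media, with 2 samples in each of 4 groups.

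Both media were N2B27, a serum-free base, on gelatin-coated plates. The 2i + LIF medium held 1 μM PD0325901, a MEK inhibitor, 3 μM CHIR99021, a GSK3 inhibitor, and 1000 units per ml of leukemia inhibitory factor. For PD + LIF the cells spent 24 h in 2i + LIF and then 4 days with PD0325901 and LIF but without CHIR99021. All groups therefore received the MEK inhibitor and LIF. How many knockout lines or clones the Trincr1-/- samples came from is not given in the sources used here, so a genotype difference may include differences between lines. A second table held FPKM from immunoprecipitation of FLAG-tagged TRIM71, an RNA-binding E3 ligase, from ESCs in 2i + LIF, beside its input.

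A mouse embryo first switches on its own genome at the two-cell stage, and it then transcribes a set of genes that are almost silent later. In cultures of ESCs a small and changing fraction of cells passes through a state in which the same genes are on, the two-cell-like state, while most cells are negative. The transcription factor DUX is the best known activator of this state, the small proteins DPPA2 and DPPA4 act upstream of it, and several chromatin repressors, among them TRIM28, keep it rare. The mean over a whole culture is therefore low, and in bulk samples fewer positive cells and less RNA per positive cell cannot be told apart.

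Zscan4c, Zscan4d and Zscan4f belong to a cluster of copies on chromosome 7 that encode SCAN-domain zinc finger proteins known for their part in telomere maintenance. In the table they lie at chr7:11005722-11010547, chr7:11161374-11166182 and chr7:11397915-11402741 of build GRCm38. Tcstv1 at chr13:119893388-119894785 and Tcstv3 at chr13:120317567-120318076 encode small proteins of the early embryo. Zfp352 at chr4:90218820-90225702 encodes a zinc finger protein. All 6 are listed as protein-coding genes.

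The upstream 250 bases of the annotated start are shown for the 4 members with a RefSeq promoter entry (GRCm38.p6), since the 3 Zscan4 copies share most of them, offset by their starts, and Zfp352 does not. Capitals mark TATAAAA, the TATA box, and TGATTCAA, the first letters of the longer element that DUX is known to bind; both strands were searched and the matches do not overlap. They are, in order, chr7:11005495-11005744 on the plus strand, chr7:11166149-11166398 on the minus strand, chr7:11397665-11397914 on the plus strand and chr4:90218570-90218819 on the plus strand.
Zscan4c: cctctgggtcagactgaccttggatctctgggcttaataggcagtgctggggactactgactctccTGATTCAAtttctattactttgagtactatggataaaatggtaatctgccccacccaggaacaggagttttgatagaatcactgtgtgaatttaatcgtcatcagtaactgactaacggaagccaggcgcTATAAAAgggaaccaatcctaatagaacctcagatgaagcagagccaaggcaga
Zscan4d: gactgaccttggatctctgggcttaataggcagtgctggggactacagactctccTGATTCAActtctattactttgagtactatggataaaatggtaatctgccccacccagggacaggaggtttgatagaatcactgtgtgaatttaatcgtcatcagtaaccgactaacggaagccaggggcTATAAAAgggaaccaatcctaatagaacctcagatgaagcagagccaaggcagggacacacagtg
Zscan4f: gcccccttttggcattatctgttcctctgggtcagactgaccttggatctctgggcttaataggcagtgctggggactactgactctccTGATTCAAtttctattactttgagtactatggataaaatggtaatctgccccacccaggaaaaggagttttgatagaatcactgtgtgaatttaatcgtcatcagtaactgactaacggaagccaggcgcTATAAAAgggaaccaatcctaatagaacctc
Zfp352: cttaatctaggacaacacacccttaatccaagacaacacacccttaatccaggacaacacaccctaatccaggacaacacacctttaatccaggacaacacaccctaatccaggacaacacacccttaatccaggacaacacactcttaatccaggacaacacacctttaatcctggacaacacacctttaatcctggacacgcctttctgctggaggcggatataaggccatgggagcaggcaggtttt

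TATAAAA began 54, 65 and 31 bases upstream of the annotated start of Zscan4c, Zscan4d and Zscan4f, and TGATTCAA began 184, 195 and 161 bases upstream. The spacing of the motifs was thus the same in the 3 copies, and only the RefSeq start moved. For Zscan4c and Zscan4d that start lies inside the gene as placed by the coordinates given above, so their windows reach into it. For Zscan4f both sources give the same start. TATAAAA was present in 4.98% and TGATTCAA in 0.539% of 32851 promoter windows of the same length. The whole DUX element was in 0.00913% of all windows and in 0 of the 4 shown, which says only that these letters are not in these windows. Because the starts differ, the windows overlap only in part. Zscan4c and Zscan4f were identical at 226 of 227 aligned bases (99.6%), and Zscan4c and Zscan4d at 232 of 239 (97.1%).

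The transcripts are as alike as the promoters. Over their aligned bases the longest transcripts of Zscan4c and Zscan4f were 99.4% identical, those of Zscan4c and Zscan4d 97.6%, and those of Zscan4d and Zscan4f 97.7%. Of all stretches of 100 bases in the Zscan4f transcript, 95.4% also occurred in another gene, against 65.8% for Zscan4c, 26.5% for Zscan4d and 0.643% for Zfp352. Shared stretches of Tcstv1 and Tcstv3 were not analysed here, so whether their values share fragments with relatives is not known. How the RNA divides between the copies is therefore uncertain, most of all for Zscan4f, and their sum is given as well.

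The depth is not stated with the table. It was estimated from the smallest steps in the values of genes with 1 transcript as 10300000 to 14100000 fragments per sample. At that depth 1 fragment of Zscan4c was worth 0.034 to 0.047 FPKM, and the values of the members stand for a handful of fragments each. The targeted gene was lower in both knockout groups, with Gm2694 at 5.70 and 9.45 FPKM in wild-type and 0.0754 and 0 FPKM in Trincr1-/- samples in 2i + LIF. In PD + LIF it was at 6.18 and 6.56 FPKM in wild-type and 1.38 and 0.746 FPKM in Trincr1-/- samples, and was higher there than in Trincr1-/- samples in 2i + LIF by 0.98 on the log2(FPKM + 1) scale (adjusted p = 0.0105 by limma). That call was lost without the second 2i + LIF or the first PD + LIF sample of these ESCs, with adjusted p of 0.0566 and 0.0721. The 8 ESC markers Pou5f1, Nanog, Sox2, Esrrb, Zfp42, Klf4, Tfcp2l1 and Tdgf1 were all above 0 in every group, and their sum ranged from 1958 to 1979 FPKM in 2i + LIF and from 1065 to 1267 FPKM in PD + LIF.

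All 6 members were low. Zscan4f, the highest, averaged 0.384 FPKM over the 8 samples, followed by Zscan4d at 0.274 and Zscan4c at 0.225 FPKM. These 3 passed the filter of a mean above 0.2 FPKM and were tested, while Tcstv1 at 0.0842, Tcstv3 at 0.0705 and Zfp352 at 0.0272 FPKM did not.

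**Figure D1:**
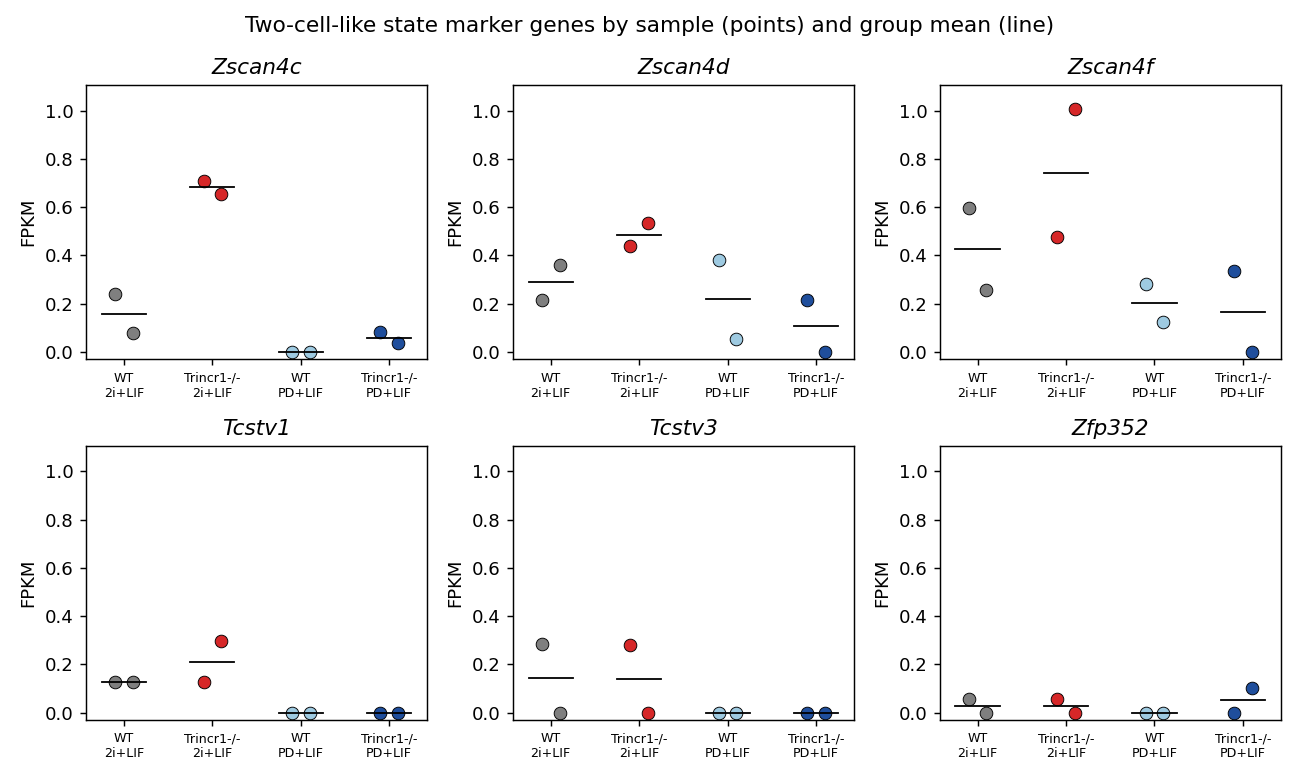
FPKM of the 6 members (y axis) by genotype (WT, wild type) and medium (x axis), with 1 point per sample and a line at the mean of the 2 samples. Zscan4c stands at 0.655 and 0.707 FPKM in Trincr1-/- ESCs in 2i + LIF and at most at 0.238 FPKM elsewhere, whereas the samples of Zscan4f overlap between genotypes.

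The first question was whether loss of Trincr1 changed these genes in 2i + LIF. The Zscan4 copies were higher in Trincr1-/- than in wild-type ESCs by their means, most of all Zscan4c, but none of the 3 tested members passed the threshold. Zscan4c was at 0.238 and 0.0791 FPKM in wild-type samples and at 0.707 and 0.655 FPKM in Trincr1-/- samples, which corresponds to about 6 and 2 fragments against 18 and 14. Both knockout samples lay above both wild-type samples, and the group means of 0.158 ± 0.112 and 0.681 ± 0.0369 FPKM (SD, n = 2) had a ratio of 4.30. On the log2(FPKM + 1) scale, which understates changes of low genes, the difference was 0.54 ± 0.12 (SE) with an adjusted p of 0.104 by limma. Over the alternatives to this fit, the adjusted p ranged from 0.0578 to 0.311, so the call was the same in each.

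Zscan4d showed the same order of groups with a smaller gap. It was at 0.217 and 0.358 FPKM in wild-type and at 0.437 and 0.533 FPKM in Trincr1-/- samples, again without overlap. The ratio of the means was 1.69 and the log2(FPKM + 1) difference 0.21 ± 0.17 (SE), adjusted p = 0.660 by limma, and it was 0.13 without the first wild-type sample.

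Zscan4f had the largest SD of the 3 tested members within each genotype in 2i + LIF. It was at 0.596 and 0.256 FPKM in wild-type and at 0.474 and 1.01 FPKM in Trincr1-/- samples, and the groups overlapped. Its log2(FPKM + 1) difference was 0.28 ± 0.22 (SE), adjusted p = 0.631 by limma. It was 0.50 without the first and 0.059 without the second Trincr1-/- sample, and 0.45 without the first and 0.11 without the second wild-type sample in 2i + LIF.

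Of the 3 tested members 0 were called at an adjusted p under 0.05, where 1.21% of all 15430 genes tested were, 0.350% higher and 0.855% lower in Trincr1-/- ESCs. Of the 3, 1, Zscan4c, had an unadjusted p under 0.05. It passed the filter only through the Trincr1-/- samples in 2i + LIF, with a mean of 0.0724 FPKM over the other samples. A difference from that group was thus partly built in, also in the ratio and the fit of Zscan4c given above. Counting all 6 members, 2 had both knockout samples above both wild-type samples and 0 had them below. Among the tested genes 22.0% were without overlap in the upward and 22.4% in the downward direction. With 2 samples a group, the spread behind the p-values was pooled over all 4 groups and drawn toward a trend over all genes tested. It is thus not the spread of the 2 groups compared alone, and it does not measure differences between lines.

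The remaining members were close to the limit of detection. Tcstv1 was at 0.126 and 0.126 FPKM in wild-type and at 0.125 and 0.297 FPKM in Trincr1-/- samples in 2i + LIF. Tcstv3 was at 0.283 and 0 FPKM in wild-type and at 0.282 and 0 FPKM in knockout samples, about 1 fragment in each sample above 0. Zfp352 was at 0.0574 and 0 FPKM in wild-type and at 0.0569 and 0 FPKM in knockout samples. None of the 3 had groups without overlap between genotypes in 2i + LIF.

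The other Zscan4 copies with a row, Zscan4e and Zscan4b, are given beside the members because their transcripts share stretches of sequence with them. Zscan4e was at 0.0540 and 0.324 FPKM in wild-type and at 0.536 and 0.510 FPKM in Trincr1-/- samples in 2i + LIF. The groups did not overlap, and the log2(FPKM + 1) difference of 0.37 ± 0.15 (SE) had an adjusted p of 0.326 by limma. Zscan4e passed the filter only through these Trincr1-/- samples, with a mean of 0.135 FPKM over the other samples. A difference from that group was therefore partly built in. Zscan4b did not exceed 0.0553 FPKM in any sample.

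The sum over the 5 copies depends less on how any shared fragments were divided among them. It leaves out Zscan4-ps2, whose transcript was 99.8% identical to that of Zscan4f and which had no row under that name. The sum of the 5 copies is given next. It was 1.10 and 1.07 FPKM in wild-type and 2.21 and 2.70 FPKM in Trincr1-/- samples in 2i + LIF. The group means were 1.09 ± 0.0240 and 2.46 ± 0.351 FPKM (SD, n = 2), with a ratio of 2.26, or 2.03 to 2.49 with 1 sample left out, a check added after seeing the data. They rest on about 26.5 and 23.1 against 50.4 and 53.0 fragments. The sum was formed for description and was not tested.

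**Figure D2:**
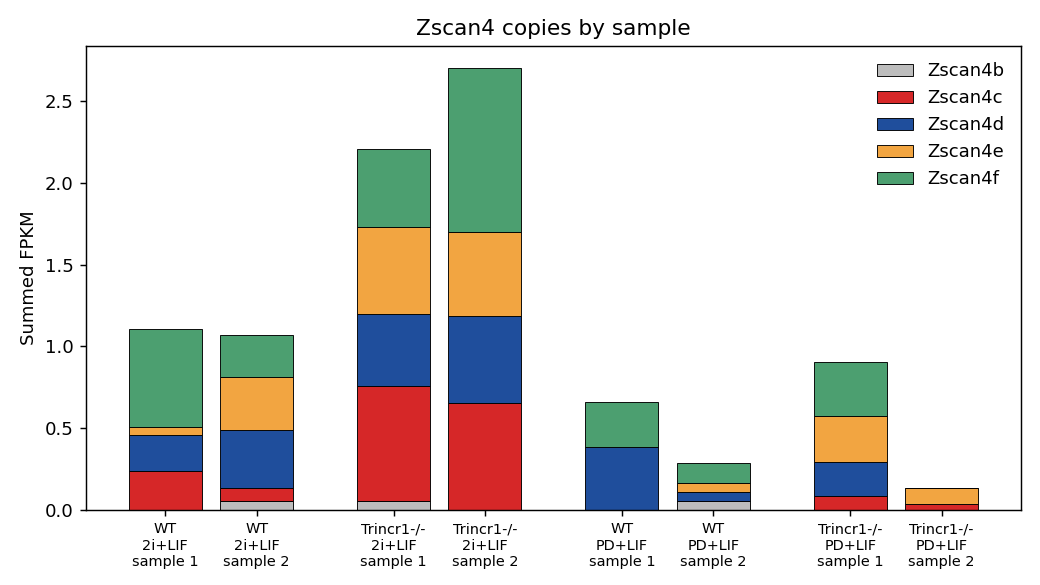
Stacked FPKM of Zscan4b, Zscan4c, Zscan4d, Zscan4e and Zscan4f (y axis) in each of the 8 samples (x axis, 2 samples per group). The stacks of Trincr1-/- ESCs in 2i + LIF reach 2.21 and 2.70 FPKM, and the other 6 samples lie between 0.133 and 1.10 FPKM.

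A second question was whether the genotypes differed in PD + LIF. The members were as low in both genotypes there, and no direction was shared among them. Zscan4c was listed at 0 in both wild-type samples and at 0.0816 and 0.0358 FPKM in Trincr1-/- samples, about 2 and 1 fragments, with an adjusted p of 0.711 by limma. The groups of Zscan4c did not overlap, by a margin of 1 fragment.

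Zscan4d was at 0.381 and 0.0527 FPKM in wild-type and at 0.213 and 0 FPKM in Trincr1-/- samples in PD + LIF, adjusted p = 0.675 by limma. Zscan4f was at 0.281 and 0.124 FPKM in wild-type and at 0.334 and 0 FPKM in knockout samples, adjusted p = 0.906 by limma. In both genes the second knockout sample was listed at 0 and the groups overlapped.

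Tcstv1 and Tcstv3 were listed at 0 in all 4 samples in PD + LIF. Zfp352 was at 0 in both wild-type samples and in the first knockout sample, and at 0.104 FPKM in the second. The sum of the 5 Zscan4 copies was 0.662 and 0.287 FPKM in wild-type and 0.907 and 0.133 FPKM in knockout samples, and the means of 0.475 ± 0.265 and 0.520 ± 0.547 FPKM (SD, n = 2) differed by less than the spread, with a ratio of 0.281 to 1.91 when 1 sample was left out.

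In PD + LIF 0 of the 3 tested members were called by limma, and 0 had an unadjusted p under 0.05, where 12.1% of the genes tested were called, 6.29% higher and 5.77% lower in Trincr1-/- ESCs. Of all 6 members 1 had knockout samples above wild-type samples without overlap, against 30.2% of the genes tested, and 0 had them below, against 27.5%. The genotype effects in the 2 media did not differ past the threshold for any of the 3, where 1.81% of the genes tested did. Zscan4c had an adjusted p of 0.209 by limma for this difference and was the 1 member with an unadjusted p under 0.05. The Trincr1-/- samples in 2i + LIF, through which alone Zscan4c passed the filter, enter this difference, so it was partly built in as well.

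The third comparison was that between media, after CHIR99021 had been withdrawn for 4 days. Zscan4c fell in Trincr1-/- ESCs and was the single member called. It passed the filter only through its level in Trincr1-/- samples in 2i + LIF, with a mean of 0.0724 FPKM over the other 6 samples, so that a difference from that group was partly built in, whereas Zscan4d and Zscan4f would have passed without them. In knockout samples it went from 0.707 and 0.655 FPKM to 0.0816 and 0.0358 FPKM, without overlap and with a ratio of 11.6 between the means of 2i + LIF and PD + LIF. The log2(FPKM + 1) difference was -0.67 ± 0.12 (SE), adjusted p = 0.00314 by limma, and the adjusted p was between 0.00115 and 0.0182 over the alternatives. The comparisons share samples, since the same Trincr1-/- samples in 2i + LIF enter both this difference and the one between genotypes.

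Zscan4d and Zscan4f were also lower in both knockout samples in PD + LIF than in both in 2i + LIF. Zscan4d differed by -0.43 ± 0.17 (SE) on the log2(FPKM + 1) scale, adjusted p = 0.0748 by limma. Zscan4f differed by -0.57 ± 0.22 (SE), adjusted p = 0.0636 by limma. Neither passed the threshold, though both did after quantile normalization of the samples, with adjusted p of 0.0192 and 0.0240 by limma.

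The count of members called in Trincr1-/- ESCs was thus 1 of 3, and 3 of 3 had an unadjusted p under 0.05. This stands beside 50.0% of all genes tested, 29.6% higher and 20.3% lower in PD + LIF, so that a call between media was common. Quantile normalization turned the split from 4572 higher and 3136 lower into 3578 higher and 3838 lower, and moved the median log2 difference of all genes from 0.071 to -0.035. In wild-type ESCs it turned 4765 higher and 3283 lower into 3803 and 3946. Without a filter on low values Tcstv1 was called as well, with an adjusted p of 0.0256 by limma, where 34.7% of 22266 genes were called.

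In wild-type ESCs the members were also lower in PD + LIF by their means, with 0 of 3 called by limma and 0 at an unadjusted p under 0.05, where 52.2% of the genes tested were called. Zscan4c was listed at 0 in PD + LIF against 0.238 and 0.0791 FPKM in 2i + LIF, adjusted p = 0.188 by limma. Zscan4d differed by -0.09 ± 0.17 (SE), adjusted p = 0.686 by limma. Zscan4f differed by -0.24 ± 0.22 (SE), adjusted p = 0.396 by limma, and the media overlapped for both of these genes.

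Counted over all 6 members, 4 were above PD + LIF without overlap in Trincr1-/- ESCs in 2i + LIF, namely Zscan4c, Zscan4d, Zscan4f and Tcstv1. In wild-type ESCs 2 were, Zscan4c and Tcstv1. Among the genes tested, of which Tcstv1 was not one, the shares were 31.2% in Trincr1-/- and 32.1% in wild-type ESCs. No member was below PD + LIF without overlap, where 43.3% and 44.4% of the genes tested were. The sum of the Zscan4 copies was 2.29 times as high in 2i + LIF as in PD + LIF in wild-type and 4.72 times as high in Trincr1-/- ESCs, by the group means. These ratios rest on single samples: without the first or the second PD + LIF sample they were 3.78 or 1.64 in wild-type and 18.4 or 2.71 in Trincr1-/- ESCs, so no difference between the genotypes can be read from them.

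A cutoff adapted from the study's, here an average of 1 FPKM or more over both genotypes and a ratio of the means over 2, was met by 0 of the 6 members in either medium. In 2i + LIF 0.255% of all identifiers met it upward and 0.476% downward, and in PD + LIF 0.544% and 0.650%. The sum of the Zscan4 copies met it in 2i + LIF, but it adds 5 genes, so the shares of single identifiers are no background for it.

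By group means, levels were highest in Trincr1-/- ESCs in 2i + LIF and next in wild-type ESCs in 2i + LIF for each of the 3 tested members. For Zscan4c the wild-type samples in 2i + LIF overlapped the Trincr1-/- samples in PD + LIF, the next group in order, and the other neighbours did not overlap. For Zscan4d the first 2 groups did not overlap and the later neighbours did, and for Zscan4f all neighbours overlapped.

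Several markers of other cell types differed between media and, in part, between genotypes. Between media 52.2% of all genes tested were called in wild-type and 50.0% in Trincr1-/- ESCs. Between genotypes the shares were 1.21% in 2i + LIF and 12.1% in PD + LIF. Primed pluripotency markers, 4 of 4 of which were called higher in PD + LIF in each genotype, summed to 42.9 to 47.8 FPKM in 2i + LIF and 110.1 to 195.9 FPKM in PD + LIF. Trophoblast markers were called higher for 4 of 6 and lower for 1, Cdx2, in each genotype, and summed to 29.0 to 32.3 and 174.5 to 303.2 FPKM. Tfap2c, Krt8 and Krt18 made up most of this sum, and Elf5 did not pass the filter. Endoderm markers summed to 1.04 to 1.44 and 4.31 to 5.89 FPKM, with 2 of 6 called higher in wild-type and 3 of 6 in Trincr1-/- ESCs. Below the filter, Sox17 had lower means in PD + LIF in both genotypes and Sox7 in wild-type ESCs. Fibroblast markers summed to 0.556 to 1.17 and 3.68 to 6.23 FPKM, again with 2 and 3 of 6 called higher. By group means Thy1 made up most of the sum, at 0.571 and 3.38 FPKM in wild-type and 0.349 and 3.05 FPKM in Trincr1-/- ESCs. Dcn was at 0 in 3 of the 4 groups, Col3a1 in both wild-type groups, and Lum in both groups in PD + LIF. Between genotypes in 2i + LIF, 1 marker of these lists was called, Cdx2, which was at 0.727 and 0.766 FPKM in wild-type and at 2.60 and 3.43 FPKM in Trincr1-/- samples (log2 difference 1.19, adjusted p = 0.0120 by limma). In PD + LIF the trophoblast markers Krt8 and Krt18, the primed marker Dnmt3b and the fibroblast marker Col1a1 were called higher in Trincr1-/- ESCs. There 5 of the 8 ESC markers, Tfcp2l1, Esrrb, Nanog, Sox2 and Pou5f1, were called lower. The part of these changes in the levels of the members, in any of the comparisons, was not tested.

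**Figure D3:**
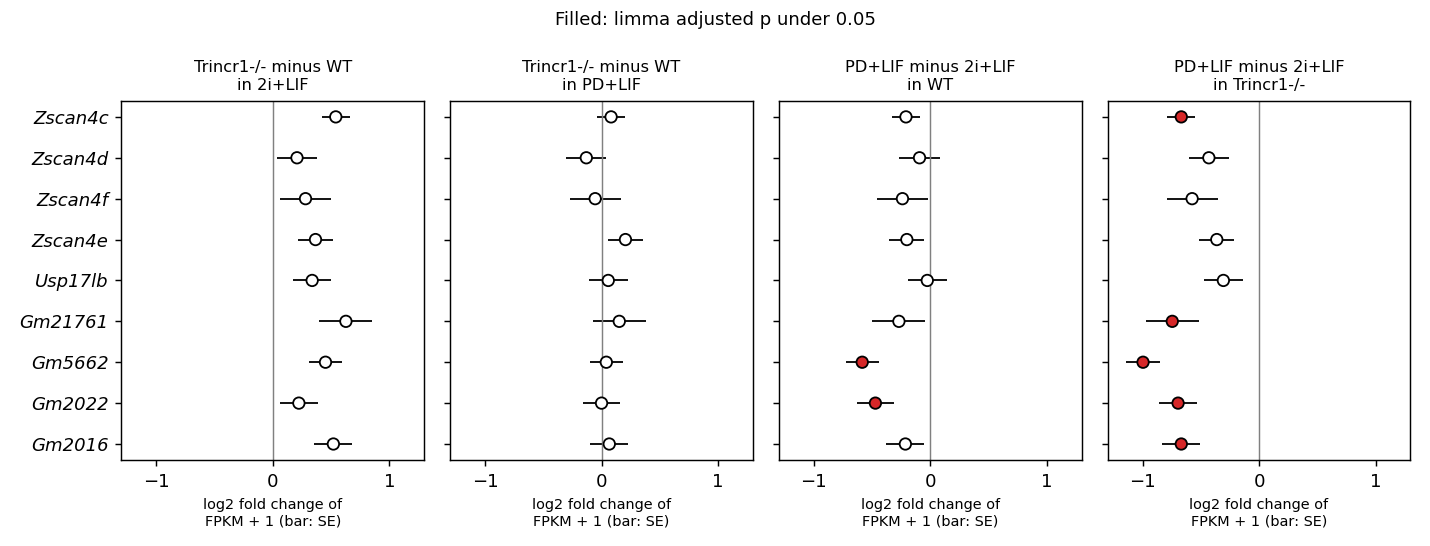
Difference in log2(FPKM + 1) with its standard error (x axis) for the 3 tested members, Zscan4e and the 5 other tested two-cell genes (y axis), in 4 comparisons by limma, with points filled where the adjusted p is under 0.05. In Trincr1-/- ESCs Zscan4c and 4 of the other two-cell genes are filled and lower in PD + LIF, and no gene is filled between genotypes. Zscan4c and Gm2016 in wild-type ESCs and Gm2022 in both genotypes are listed at 0 in PD + LIF, so their values there depend on the added 1.

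A list of 37 other genes of the two-cell-like state, such as the Usp17l, Tdpoz and Trim43 families, was followed in the same way. Of these 36 had a row, 31 were above 0 in some sample and 5 passed the filter. Many are multicopy genes and may share fragments with relatives, as the Zscan4 copies may. Their summed level was 4.32 and 3.57 FPKM in wild-type and 8.06 and 9.61 FPKM in Trincr1-/- samples in 2i + LIF. In PD + LIF it was 0.824 and 1.15 FPKM in wild-type and 2.09 and 2.05 FPKM in Trincr1-/- samples. In both media the knockout samples lay above the wild-type samples, by 2.24 times in 2i + LIF and 2.10 times in PD + LIF, and the sum was not tested. At these levels a few fragments of a short gene weigh on the sum. Gm20767, with a span of 510 bases, was at 0.517 FPKM in the second Trincr1-/- sample in PD + LIF. There 1 fragment of Tcstv3, which has the same span, was worth 0.2585 FPKM.

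The number of listed genes above 0 moved with the sum. It was 22 and 21 in wild-type and 28 and 27 in Trincr1-/- samples in 2i + LIF, and 10 and 14 against 15 and 16 in PD + LIF. Of the 31 genes, 80.6% had a higher mean in Trincr1-/- than in wild-type ESCs in 2i + LIF, beside 38.4% of the 7629 genes in the same range of means. In PD + LIF the shares were 58.1% and 45%, with 18 of the list higher and 5 lower. Between media, 77.4% had a higher mean in 2i + LIF in wild-type and 90.3% in Trincr1-/- ESCs, beside 36.1% and 35% of all genes in that range. In all these shares a gene with equal means, such as 0 in both groups, counted as not higher. Between genotypes in 2i + LIF 25 of the 31 were higher and 6 lower, whereas lower and equal means in the whole range were not counted apart. The shares of that range are therefore no even baseline. Tdpoz1 and Tdpoz3 were above 0 only in Trincr1-/- samples in 2i + LIF, so their direction was fixed once they were kept as detected. The other genes of that range were not matched to the list within it. Families that share fragments are not independent of each other.

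**Figure D4:**
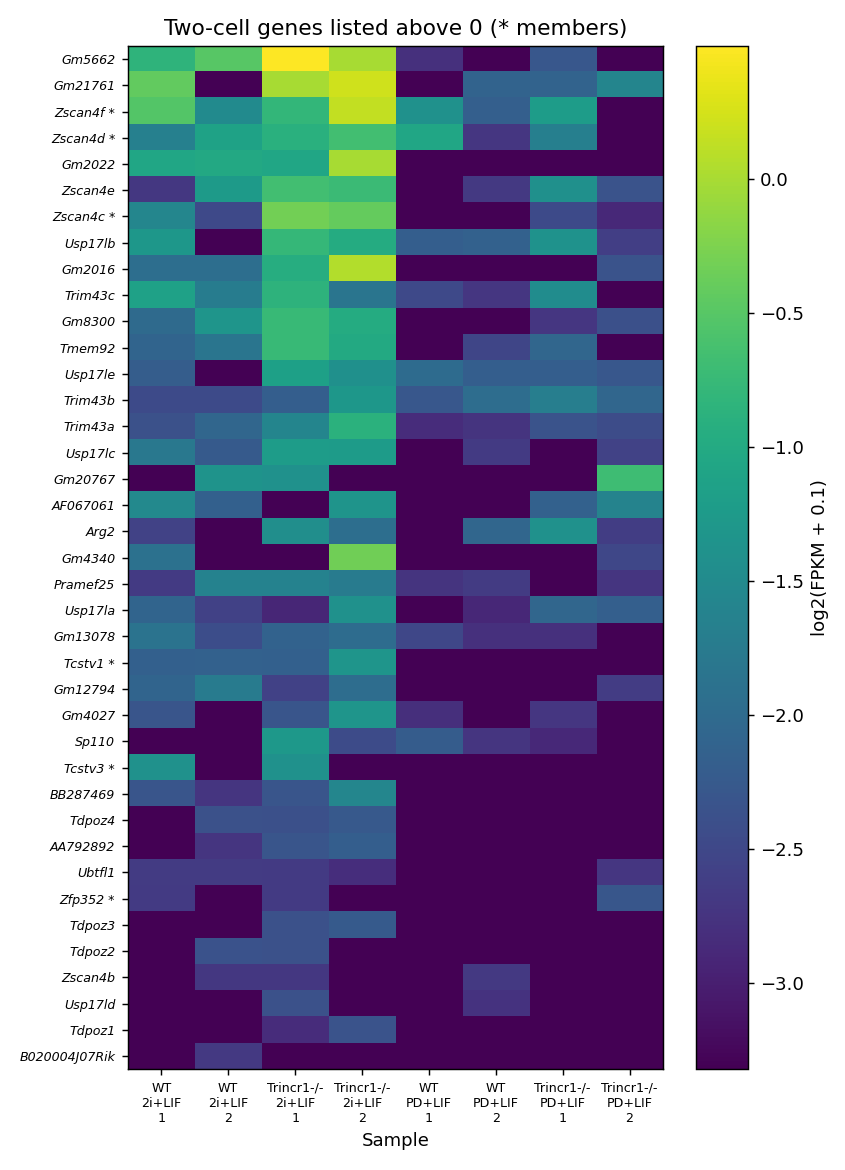
Level as log2(FPKM + 0.1) (colour) of the two-cell genes above 0 in any of the 8 samples (rows, ordered by mean, asterisks on the members) in each sample (columns, 2 per group). The darkest cells are values listed at 0, and of the 31 genes that are neither members nor Zscan4 copies 27 or 28 are above 0 in Trincr1-/- samples in 2i + LIF and 10 to 16 in PD + LIF.

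Gm5662, Gm21761 and Gm2022 had the highest means of that list. Gm5662 was at 0.458 and 0.610 FPKM in wild-type and at 1.31 and 0.901 FPKM in Trincr1-/- samples in 2i + LIF, without overlap and with an adjusted p of 0.210 by limma. Its difference between media was -0.58 ± 0.14 (SE) in wild-type and -0.996 ± 0.14 (SE) in Trincr1-/- ESCs, with adjusted p of 0.0111 and 0.00102 by limma. Gm21761 was at 0.647 and 0 FPKM in wild-type and at 0.899 and 1.07 FPKM in knockout samples in 2i + LIF, adjusted p = 0.266 by limma. Gm2022 was at 0.381 and 0.392 FPKM in wild-type and at 0.380 and 0.899 FPKM in knockout samples in 2i + LIF, and was listed at 0 in all 4 samples in PD + LIF.

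Of the 5 genes that could be tested, 0 were called between genotypes in either medium by limma, with 3 at an unadjusted p under 0.05 in 2i + LIF and 0 in PD + LIF. Of the 5, Gm5662 alone would have passed the filter without the Trincr1-/- samples in 2i + LIF, so a difference in that direction is partly built in. Between media 2, Gm5662 and Gm2022, were called lower in PD + LIF in wild-type ESCs, and 4, with Gm21761 and Gm2016, in Trincr1-/- ESCs, where 52.2% and 50.0% of all genes tested were called in either direction. Gm2016 was named after its values were seen. The call of Gm5662 in wild-type ESCs was lost without the second wild-type sample in 2i + LIF, with an adjusted p of 0.0593, and that of Gm2016 without the first Trincr1-/- sample in PD + LIF, with 0.0608. The calls of Gm2022 in wild-type and Gm21761 in Trincr1-/- ESCs were lost in 7 and 6 of 16 alternatives, most of them with a sample left out.

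Known activators of the state were far more abundant than its markers. Of 6 listed, 4 had a row, all of them passed the filter, and none was called between genotypes in either medium by limma, with 1 at an unadjusted p under 0.05 in each. Dux was not analysed here. Dppa2 was at 24.9 and 26.1 FPKM in wild-type and at 28.8 and 27.9 FPKM in Trincr1-/- samples in 2i + LIF. In PD + LIF it was at 12.3 and 11.2 FPKM in wild-type and at 13.2 and 12.9 FPKM in Trincr1-/- samples. Dppa2 fell by 1.06 on the log2 scale in both wild-type (adjusted p = 2.84e-05 by limma) and Trincr1-/- ESCs (2.33e-05).

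Dppa4, the partner of DPPA2, went the other way. Its group means in wild-type ESCs were 46.7 ± 0.406 FPKM in 2i + LIF and 55.8 ± 2.07 FPKM in PD + LIF, and in Trincr1-/- ESCs 40.2 ± 1.27 and 53.6 ± 3.89 FPKM (SD, n = 2). The rise was 0.25 in wild-type (adjusted p = 0.0115 by limma) and 0.40 in Trincr1-/- ESCs (0.00142) on the log2 scale. In wild-type ESCs the call was lost without the second 2i + LIF sample or the second PD + LIF sample, with adjusted p of 0.0568 and 0.0677. Nelfa, a subunit of the negative elongation factor, was between 19.1 and 21.7 FPKM in all 8 samples. Tbx3, a T-box factor named here after its values were seen, went from 34.2 ± 0.710 to 5.55 ± 0.129 FPKM in wild-type and from 31.9 ± 1.65 to 4.52 ± 0.170 FPKM in Trincr1-/- ESCs (SD, n = 2).

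The 20 listed repressors were expressed in every group and all passed the filter. In 2i + LIF 0 were called between genotypes by limma, with 4 at an unadjusted p under 0.05, and in PD + LIF 2 were called higher and 1 lower in Trincr1-/- ESCs. A share of 12.1% of all genes tested was called there, so 3 of 20 is close to the background. Trim28, the corepressor of KRAB zinc finger proteins, was at 443.3 and 438.9 FPKM in wild-type and at 539.2 and 516.4 FPKM in Trincr1-/- samples in PD + LIF, higher by 0.26 on the log2 scale (adjusted p = 0.0142 by limma). Ncl, which encodes nucleolin, was higher by 0.21 (adjusted p = 0.0190 by limma), with 529.9 and 519.1 against 621.1 and 594.4 FPKM. Mga, a scaffold of a noncanonical Polycomb complex, was lower by 0.28 (0.0379 by limma). Zfp42, also a marker of naive ESCs, was not called between genotypes, and its group means were 247.5 ± 4.98 and 152.8 ± 2.58 FPKM in wild-type ESCs in 2i + LIF and PD + LIF and 250.4 ± 2.73 and 139.98 ± 9.97 FPKM in Trincr1-/- ESCs (SD, n = 2).

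These 3 calls depended on the fit and on single samples. Those of Trim28 and Ncl were lost without the variance trend, with adjusted p of 0.0718 and 0.101, and with only the samples of the comparison, with 0.0535 and 0.0665. They were also lost without the first Trincr1-/- sample in PD + LIF, with adjusted p of 0.102 and 0.120, and without either wild-type sample in PD + LIF, with 0.075 to 0.0919. That of Ncl was also lost without the second Trincr1-/- sample, with 0.0507. That of Mga was lost in 11 of 17 alternatives, most of them with a sample left out. Between media 4 repressors were called higher and 9 lower in PD + LIF in wild-type ESCs, and 6 and 9 in Trincr1-/- ESCs, beside 52.2% and 50.0% of all genes tested. The median log2 difference of the list was -0.10 and -0.13, beside 0.076 and 0.071 for all genes tested.

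Among the 3 tested members, Pearson's r of log2(FPKM + 1) over the 8 samples was 0.667 between Zscan4c and Zscan4d, 0.784 between Zscan4c and Zscan4f, and 0.777 between Zscan4d and Zscan4f. These copies may share fragments and come from the same libraries, so the values are given as a description. Of 12063 genes with a mean above 1 FPKM, those most like the mean z-score of the 3 members were Rgs9 (r = 0.98), Bag5 and Pcnt (0.97 each), Tgfb1 (0.97) and Atpaf2 (0.96). Rgs9, which encodes a regulator of G protein signalling, was at 2.083 and 2.498 FPKM in Trincr1-/- samples in 2i + LIF and between 0.61 and 1.39 FPKM in the other 6. The other 4 changed less, for example Bag5 with a range of 11.1 to 13.4 FPKM. The ranking is a description over 8 samples.

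The TRIM71 immunoprecipitation allowed no reading of whether the members were bound. Of the 6, Zscan4c alone had a value, with 0.3 FPKM in the input and 0 in the immunoprecipitate, and the other 5 were not analysed there. Of 410 transcripts with the same input value, 93.4% were also listed at 0 in the immunoprecipitate, so the reading of Zscan4c was that of most transcripts of its level. The table gives the authors' pooled value for each, with no replicate values, so no test was made.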

How the data were processed

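Poly(A)+ RNA was sequenced from 8 ESC samples, 2 for each genotype and medium. Per the labels, the authors aligned reads with STAR 2.5.0 to mm9 and quantified genes with Cufflinks 2.2.1, and they deposited FPKM. The coordinates in the table are those of GRCm38, with starts counted from 0: of 30368 genes compared with RefSeq, 79.2% lay within 1000 bases and 12015 starts were 1 below it, against 735 equal. Here 1 was added to each start. For the immunoprecipitation the authors deposited pooled FPKM of TRIM71 and input, and, per the methods, reads on non-polyadenylated transcripts were left out. The remaining columns of that table hold the authors' ratios and were not used. The immunoprecipitation samples from empty cells were not analysed here. FPKM divides by length and depth, and Cufflinks shares fragments among similar transcripts, so values of near-identical copies depend on that model.

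For 39 identifiers with several entries the largest by mean was used (their sum was an alternative). Values were tested as log2(FPKM + 1) with limma 3.58.1 in R 4.3.3 (1 fit of all 4 groups, 4 residual degrees of freedom, variance trend), for 15430 genes with a mean above 0.2 FPKM, and p-values were adjusted over all of them by the Benjamini-Hochberg method at 0.05. The labels' biological replicates are not traced to separate cultures in the sources used here. The script was tested on simulated data. Depth was estimated from the FPKM steps of genes with 1 transcript, and fragments are therefore estimates with no interval given. The members and lists were chosen with earlier results of these data known, and 1 item of the lists is not reported here. Named are the 6 members, other Zscan4 copies, listed genes called between genotypes (at most 5 a list a comparison), the 3 of highest mean in each list, and the 5 genes most correlated with the members. Same-numbered samples deviated with correlations of -0.054 to 0.0063 over the genes tested, so no strong shared deviation was seen and the main fit used no pairing. Whether same-numbered samples were handled together is not known, since these correlations cannot show it. Motifs and sequences were read with Biopython 1.88 from RefSeq promoters and GENCODE transcripts.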

Additional observations from a re-analysis of the deposited data

How the results depend on the processing

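Over 15 pairs of a tested member and a comparison, 237 alternative values were computed; 227 kept the direction and the side of the threshold, 5 newly passed it and 5 changed sign, all of the last in values far from the threshold. Without the second Trincr1-/- sample in PD + LIF, the genotype difference there became 0.0084 for Zscan4d and 0.15 for Zscan4f, and without the first wild-type sample 0.065 and 0.040, on the log2(FPKM + 1) scale. The difference of Zscan4d between media in wild-type ESCs became 0.10 without the second PD + LIF sample. With 1 sample left out these 3 differences ran from -0.33 to 0.065, from -0.26 to 0.15 and from -0.29 to 0.10. That of Zscan4f between media in Trincr1-/- ESCs was -0.35 without their second 2i + LIF sample, and that of Zscan4d -0.29 without their second PD + LIF sample. The count of members called between media in Trincr1-/- ESCs was 1; it was 2 without a filter and 3 after quantile normalization, and from 1 to 2 with 1 sample left out. It was 2 without the first Trincr1-/- sample in 2i + LIF (Zscan4c and Zscan4f) and without either wild-type sample in PD + LIF (Zscan4c and Zscan4d). The other counts of members called stayed at 0. A filter of a mean above 1 FPKM left no member and gave no value.

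The cutoff on average and ratio (values under 0.1 FPKM set to 0.1) took 0 members in either medium. In 2i + LIF it took 1, Zscan4c, once the average needed was 0.2 FPKM, and 1, the Zscan4 sum, with copies summed. The ratio of immunoprecipitate to input for Zscan4c was 0.769 instead of 0 with 1 FPKM added to both. The cause of these changes was not tested, beyond the fewer or more genes and samples each alternative used.

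With the replicate number as a block, the members called stayed at 0 between genotypes and at 1, Zscan4c, between media in Trincr1-/- ESCs. The block ended the calls of Gm2022 between media in wild-type ESCs (adjusted p = 0.0508) and of Mga between genotypes in PD + LIF (0.0656). Over all genes the block gave 111 instead of 186 calls between genotypes in 2i + LIF and 1302 instead of 1861 in PD + LIF. For the difference of the genotype effect between media it gave 39 instead of 279. A fit to the 4 samples of a comparison alone gave 0 calls in 2i + LIF, with 2106 at an unadjusted p under 0.05, and 316 in PD + LIF. With 1 sample left out the counts ran from 40 to 113, from 335 to 1519 and from 3 to 34, where a lone sample is assumed to vary like the others. Without a filter 122, 1519 and 138 were called, and without the variance trend 138, 1378 and 88.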
